A study of Mus musculus with 3 samples.

Results

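The genes described here encode subunits, base assembly chaperones and activators of the constitutive proteasome, the protein complex that degrades ubiquitin-tagged proteins in every cell. Members were taken by symbol from the platform's gene table, Psma1 to Psma7, Psmb1 to Psmb7, Psmc1 to Psmc6, Psmd1 to Psmd14 and Psme1 to Psme4, which makes 38 genes. Of these, 34 had a probe under that symbol, each a single probe with a value on all 3 arrays, out of 14733 genes with such a probe. Psma5, Psmb3, Psme2 and Psme3 were not analysed here, because no probe carries their symbol in that table.

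The OP9 line, a mouse bone stromal line used to support blood cells in culture, was profiled in 3 forms on 3 one-colour arrays, 1 per form. OP9-DL cells express green fluorescent protein and the Notch ligand Delta-like 1, OP9-GFP cells express green fluorescent protein, and OP9 is the parental line without either. All of them descend from calvaria of newborn B6C3Fe-a/a mice homozygous for the Csf1op mutation, received no treatment and grew in αMEM with 20% FBS. The labels do not say how the proteins were introduced, or whether a line is 1 clone. With 1 array per line there is no replicate check, error or test of any difference, and effects of the introduced genes cannot be told apart from other differences between the cultures.

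The proteasome has a barrel-shaped core of alpha and beta rings. The outer alpha rings gate the entry, and the inner beta rings carry the protein-cutting sites on Psmb5, Psmb6 and Psmb7. A regulatory particle caps the core: its base holds a ring of ATPases that unfold the substrate, and its lid removes the ubiquitin chain. Interferons induce a second set of cutting subunits, Psmb8, Psmb9 and Psmb10, which replace the constitutive ones in the immunoproteasome, and they also induce Psme1, which encodes the alpha subunit of the PA28 activator. The transcription factors encoded by Nfe2l1 and Nfe2l2 raise proteasome genes in stressed cells through antioxidant response elements.

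Every member exceeded the brightness limit, which required a mean log2 intensity at or above the 25th percentile, equal to an intensity of 6.13, so none was lost to it. The deposited intensities have a median of 20 on each array. Dll1, the gene of Delta-like 1, had an intensity of 333.3 in OP9-DL, 20.5 in OP9-GFP and 14.0 in OP9, so it was highest in the line labelled with it. Of 11 stromal markers, 10 were at 20 or above on all 3 arrays, and Thy1 was below 20 on each. The summed intensity of the blood cell markers was 124.1 in OP9-DL, 10.8 in OP9-GFP and 10.2 in OP9. Cd48 alone gave 114.4 of the OP9-DL sum, and Ptprc, the common leukocyte marker, had 2.8 in OP9-DL, 2.5 in OP9-GFP and 2.1 in OP9. The part of any admixed cells in the differences below was not tested, and a gene's lower RNA per cell cannot be told apart from fewer cells that express it.

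Sequences around the start of transcription are shown for Psme1, the member with the widest difference, for the immunoproteasome genes Psmb8 and Psmb9, which lay on the same side, and for the members with an antioxidant response element close to the start. They are RefSeq promoters of the build GRCm38.p6, printed on the gene's strand, and the table holds promoters for 28 of the 34 members. An interferon-stimulated response element was searched as GAAA, any 2 bases and GAAA again, and a gamma-activated site as TTCNNNGAA, on both strands. Capitals mark these matches in the following 3 windows, which run from base -120 to base 30, counted from the start.
Psme1, chr14:55578374-55578523, plus strand: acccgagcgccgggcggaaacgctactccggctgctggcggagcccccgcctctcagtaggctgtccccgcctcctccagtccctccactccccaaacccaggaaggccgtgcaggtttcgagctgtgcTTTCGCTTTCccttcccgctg
Psmb8, chr17:34198075-34198224, plus strand: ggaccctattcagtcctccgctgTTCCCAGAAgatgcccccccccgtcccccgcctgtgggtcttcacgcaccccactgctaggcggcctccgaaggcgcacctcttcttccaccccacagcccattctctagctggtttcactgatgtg
Psmb9, chr17:34187301-34187450, minus strand: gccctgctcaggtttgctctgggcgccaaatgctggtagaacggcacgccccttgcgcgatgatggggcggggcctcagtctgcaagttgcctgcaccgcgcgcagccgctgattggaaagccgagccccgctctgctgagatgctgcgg

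The Psme1 match lies on the other strand, at bases 10 to 19 after the start, and the Psmb8 match lies at bases -97 to -89. The Psmb9 window held neither set of letters in this stretch. Nor did the same window of the immunoproteasome gene Psmb10, which lay on the same side and is not printed. The full promoter of Psmb9 in the table contains the printed window. It shares 275 bases with that of Tap1, a peptide transporter gene that runs the opposite way. Over all 32851 mouse promoters in the table, each with 250 bases before and 50 after the start, 3.44% held the interferon-stimulated letters and 8.3% the gamma-activated ones. Among the members, Psmd4, Psmd9 and Psme1 held the interferon-stimulated letters and Psmd2 the gamma-activated ones. A match is a description of the letters and not evidence of binding.

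The antioxidant response element was searched as TGACNNNGC on both strands. It was found in 6 members, Psmb5, Psmb6, Psmc6, Psmd9, Psmd12 and Psme4, or 6 of the members' 30 promoters (20.0%), against 12.4% of all promoters. Of these, 4 held it within 50 bases of the start, and capitals mark the match.
Psmb5, chr14:54618018-54618058, minus strand: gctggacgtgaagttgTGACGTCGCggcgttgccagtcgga
Psmb6, chr11:70525332-70525372, plus strand: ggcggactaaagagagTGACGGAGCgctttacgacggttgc
Psmd9, chr5:123228143-123228183, plus strand: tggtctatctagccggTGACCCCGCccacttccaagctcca
Psme4, chr11:30771752-30771792, plus strand: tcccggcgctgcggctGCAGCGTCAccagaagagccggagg

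OP9-DL and OP9-GFP differ by label only in Delta-like 1. No member reached a 2-fold difference between them. Of the 34 members 0 were past it, against 5.03% of the 15581 probes compared (2.31% higher and 2.72% lower). A count of 0 lies near that share and does not set the members apart. The members' median log2 difference of OP9-DL minus OP9-GFP was 0.01, beside -0.01 over all compared probes, and 18 of 34 members lay above 0 (17 to 20 over the scalings), beside 48.0% of all probes. Their interquartile range was 0.33 on the log2 scale, from -0.19 to 0.14, and that of all compared probes was 0.51. At 1.5-fold, 0 members were higher and 3 were lower, where 7.74% of all probes were higher and 8.43% lower by that fold, 16.2% together. Each member is read by 1 probe, and probe sequences were not used here, so readings mixed with near-identical copies such as processed pseudogenes cannot be separated.

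The core subunits stood close together between these lines, apart from Psma2 and Psmb4. Of the alpha ring genes, 5 of 6 were above 0, with a median of 0.19. Psma3 had intensities of 934.9 in OP9-DL, 736.1 in OP9-GFP and 445.4 in OP9, and its log2 difference of OP9-DL minus OP9-GFP, 0.34, was the highest of all members. Psma7 had 2666.5, 2229.2 and 2027.0 on the same arrays, a difference of 0.26. Psma2 went the other way: it had 1451.9 in OP9-DL, 2241.7 in OP9-GFP and 1282.2 in OP9, so that OP9-GFP stood above the other arrays and the difference of OP9-DL minus OP9-GFP was -0.63. In the beta ring, 3 of 6 genes were above 0, and the sign of the median, -0.04, turned under another scaling. The catalytic gene Psmb5, which encodes the chymotrypsin-like site, read 7374.2 in OP9-DL and 7371.9 in OP9-GFP. Psmb6, the caspase-like site, read 3649.1 and 3389.2, and Psmb7, the trypsin-like site, 919.9 and 966.8. The structural gene Psmb4 was the exception, with 2592.8 in OP9-DL, 4487.5 in OP9-GFP and 3695.2 in OP9, a difference of -0.79 from OP9-GFP and the lowest value of the 3 arrays in OP9-DL.

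The regulatory particle also stayed within 2-fold between OP9-DL and OP9-GFP, where 5.03% of all probes were past it. The 6 ATPase genes of the base had differences from -0.28 (Psmc3) to 0.24 (Psmc5), with a median of 0.04. Psmd1 and Psmd2, the large scaffold subunits of the base, and Psmd4, a ubiquitin receptor, differed by 0.20, 0.03 and 0.24. Psmd14, the lid enzyme that removes the ubiquitin chain, read 1650.9 in OP9-DL and 1652.6 in OP9-GFP. The lid genes had a median of -0.04 whose sign turned under other scalings. Their ends were Psmd13, with 750.3 in OP9-DL against 626.2 in OP9-GFP (0.26), and Psmd12. Psmd12, a structural lid subunit, had 613.4 in OP9-DL, 1100.9 in OP9-GFP and 723.2 in OP9, which makes it 1.79-fold lower in OP9-DL than in OP9-GFP, the widest difference of any member in this comparison. Psmd7, the partner of Psmd14 in the lid, had 1678.1 in OP9-DL, 2304.1 in OP9-GFP and 1582.6 in OP9, a difference of -0.46 between OP9-DL and OP9-GFP, with OP9 as its lowest array.

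**Figure D1:**
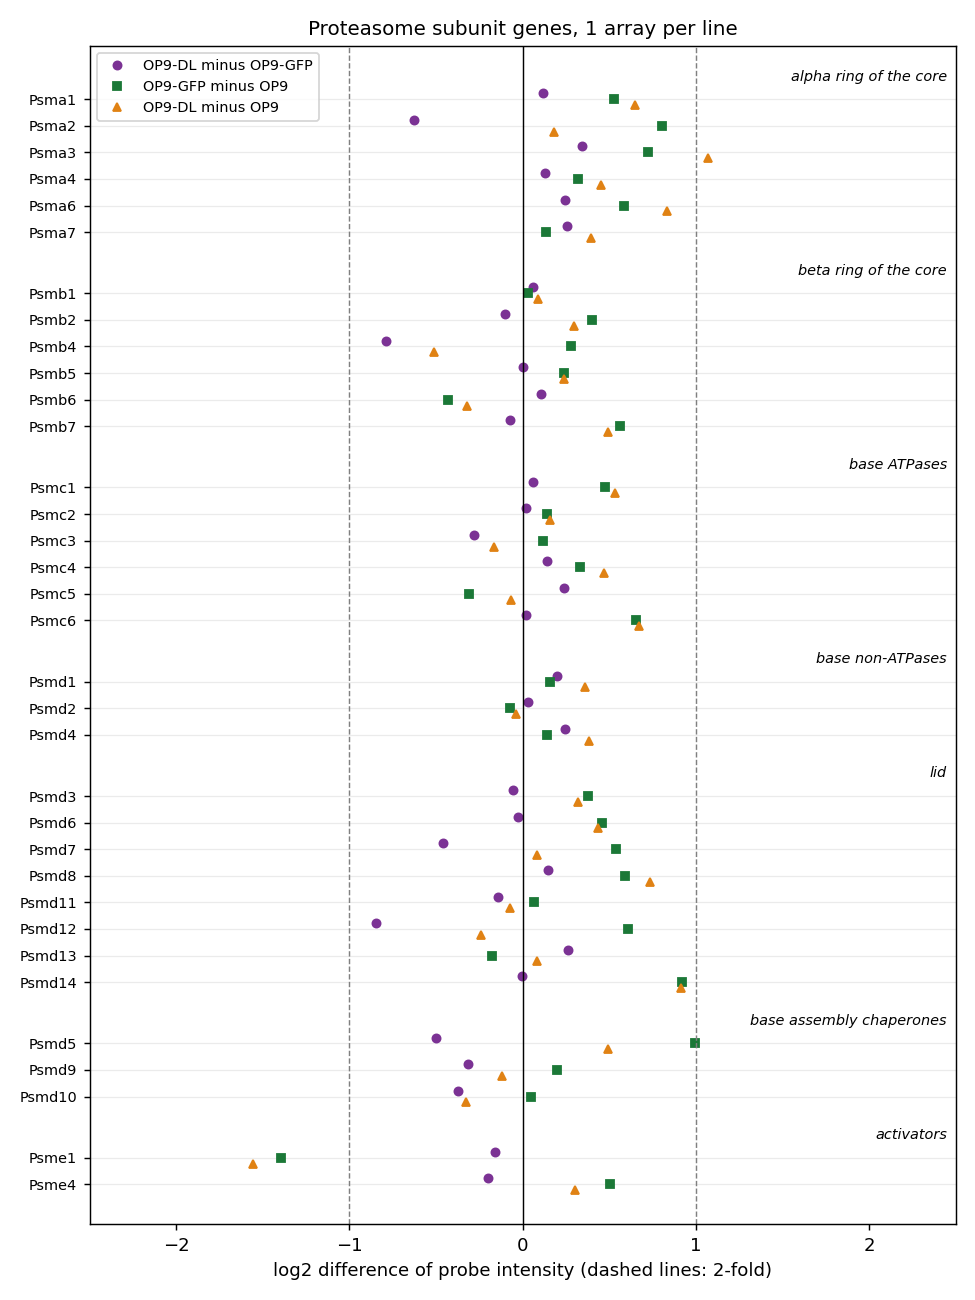
Log2 difference of probe intensity (x axis) for each of the 34 members (rows, grouped by role), with circles for OP9-DL minus OP9-GFP, squares for OP9-GFP minus OP9 and triangles for OP9-DL minus OP9; dashed lines mark 2-fold, and each point rests on 1 array per line. Most squares and triangles lie right of 0, while the circles scatter around 0 and Psme1 alone lies left of the lower dashed line.

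Of the compared genes that help to assemble the proteasome, Psmg2 and Psmg3 were past 2-fold between OP9-DL and OP9-GFP, and the others were within it. Psmg4 and Paaf1, further assembly factors, had no probe under their symbol and were not compared. The 3 base chaperones among the members, Psmd5, Psmd9 and Psmd10, were all below 0 and within 2-fold, with a median log2 difference of -0.37, where 48.0% of all probes lay above 0. Psmd5 read 464.6 in OP9-DL, 657.4 in OP9-GFP and 329.8 in OP9. Psmd9 read 74.3, 92.6 and 80.8, and Psmd10, also known as gankyrin, 240.3, 311.5 and 300.9. The compared chaperones of the core, which are no members of the list, lay on the same side. Psmg2, which pairs with Psmg1 to build the alpha ring, had 17.5 in OP9-DL, 188.0 in OP9-GFP and 121.7 in OP9. It was thus 10.7-fold lower in OP9-DL than in OP9-GFP and 6.95-fold lower than in OP9. The OP9-DL reading of Psmg2 lay below the array median of 20, so the size of these folds rests on 1 dim reading. Psmg1 had 325.9, 492.2 and 484.7 on these arrays, a difference of -0.59 between OP9-DL and OP9-GFP. Psmg3, of the second chaperone pair, had 500.1 in OP9-DL, 1009.6 in OP9-GFP and 494.8 in OP9. It was 2.02-fold lower in OP9-DL than in OP9-GFP, a log2 difference of -1.01, but under 2-fold on the 3 other scalings, at -0.99, -0.97 and -0.96. Its OP9-GFP reading stood apart from the other arrays. Pomp, which completes the core, had 1440.0 in OP9-DL, 2158.1 in OP9-GFP and 1620.1 in OP9 (-0.58).

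Of the 7 compared genes on the list of assembly factors and regulators of the assembled proteasome, 2 were past 2-fold, both lower in OP9-DL than in OP9-GFP, and 6 of 7 lay below 0 (5 under some scalings), with a median of -0.58. The list was described with no test, and 2.72% of all probes were lower by that fold. Ecpas, which holds core and cap together, was the gene above 0, with 292.8 in OP9-DL and 257.2 in OP9-GFP. Akirin2, which brings proteasomes into the nucleus, read 478.4 and 487.9, and Psmf1, an inhibitor of the core in vitro, 311.1 and 351.8. Among 7 further genes of the cap and its enzymes, 0 were past 2-fold and 6 lay below 0 (5 under some scalings), with a median of -0.30. Of all probes, 5.03% were past 2-fold and 48.0% lay above 0, so the count of 0 does not set these genes apart. The proteasome-bound deubiquitinase gene Uchl5 had 372.3 in OP9-DL, 649.7 in OP9-GFP and 331.2 in OP9, a difference of -0.80 from OP9-GFP. Ube3c, a ubiquitin ligase bound to the proteasome, had 61.3 in OP9-DL, 100.8 in OP9-GFP and 124.8 in OP9 (-0.72 from OP9-GFP).

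**Figure D2:**
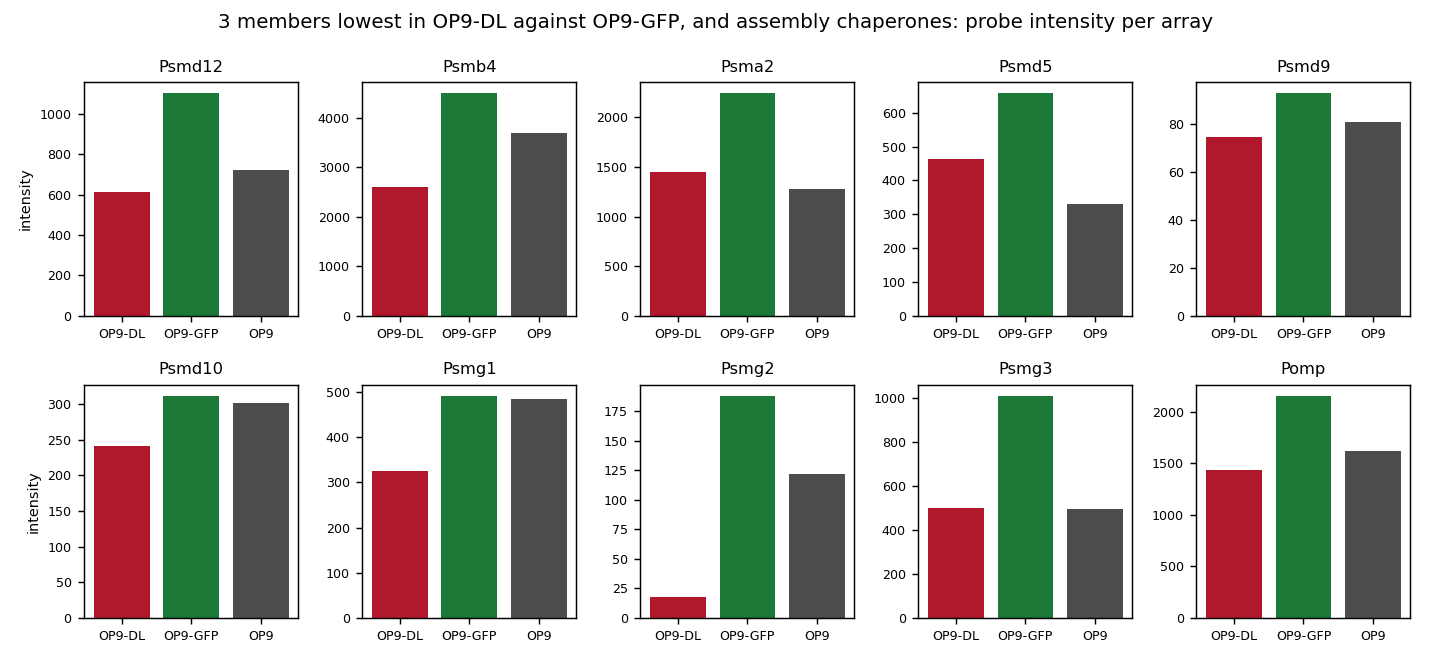
Probe intensity (y axis, linear from 0, a scale of its own for each gene) on the OP9-DL, OP9-GFP and OP9 arrays for the 3 members lowest in OP9-DL against OP9-GFP, the 3 base chaperones and 4 core chaperones; each bar is 1 array. The OP9-GFP bar is the tallest in every panel, and for Psmg2 the OP9-DL bar, at 17.5, is far below those of OP9-GFP (188.0) and OP9 (121.7).

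OP9-GFP and OP9 differ by label in the fluorescent protein. Most proteasome genes were somewhat higher in OP9-GFP: 29 of 34 members lay above 0 (28 under quantile scaling), beside 51.7% of all compared probes, and their median log2 difference of OP9-GFP minus OP9 was 0.33, a fold of 1.25, beside 0.02 over all probes. No member was 2-fold higher, and 1 was 2-fold lower, Psme1, where 11.6% of all probes were past that threshold (4.86% higher and 6.75% lower). At 1.5-fold, 7 members were higher and 1 was lower, beside 13.9% of all probes higher and 15.4% lower, 29.4% together. The number higher at 1.5-fold moved with the scaling. Psmd8 and Psmd12 fell under that fold with lowess scaling, at log2 differences of 0.54 and 0.55. Psma1, Psma6, Psmb7 and Psmd7 passed it when arrays were scaled on the 75th percentile. The median was above 0 under each scaling tried, from 0.28 to 0.39.

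Among the groups of members, the alpha ring and the lid had the highest medians in OP9-GFP against OP9. All 6 alpha ring genes were above 0, with a median of 0.56 and a range from 0.14 to 0.81, and Psma2 was their upper end (2241.7 in OP9-GFP and 1282.2 in OP9). Psma3, at 736.1 against 445.4, was 1.65-fold higher. Psma6, at 3165.9 against 2110.7, lay just under 1.5-fold. Of the 8 lid genes 7 were above 0, with a median of 0.50. Psmd14, the deubiquitinase of the lid, read 1652.6 in OP9-GFP and 874.2 in OP9, 1.89-fold higher, and its OP9-DL reading of 1650.9 lay beside that of OP9-GFP. Psmd8 (2091.6 and 1389.1) and Psmd12 (1100.9 and 723.2) were 1.51-fold and 1.52-fold higher in OP9-GFP. The widest positive difference was that of the base chaperone Psmd5, at 657.4 in OP9-GFP and 329.8 in OP9, which is 1.99-fold and past 2-fold when arrays were scaled on their 75th percentile. In the beta ring 5 of 6 genes were above 0 with a median of 0.26, though Psmb1, at 3949.1 against 3864.9, lay below 0 under quantile scaling. The base ATPases had a median of 0.24, with Psmc6 highest (1649.1 in OP9-GFP and 1046.4 in OP9, 1.58-fold).

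Against this, 5 members were lower in OP9-GFP than in OP9. Psmb6 had 3389.2 in OP9-GFP and 4565.2 in OP9 (-0.43), while the other catalytic genes differed the opposite way, by 0.24 for Psmb5 and 0.56 for Psmb7. Psmc5 had 1175.0 in OP9-GFP and 1455.5 in OP9 (-0.31). The lid gene Psmd13, with 626.2 against 707.6, and the base scaffold gene Psmd2, with 827.8 against 870.6, differed by -0.18 and -0.07. Psme1 stood far outside the range of the others, with 510.0 in OP9-DL, 568.9 in OP9-GFP and 1497.8 in OP9. It was 2.63-fold lower in OP9-GFP than in OP9 and 2.94-fold lower in OP9-DL, whereas the difference between OP9-DL and OP9-GFP was -0.16. Psme4, which encodes the activator PA200, had 46.0 in OP9-DL, 52.9 in OP9-GFP and 37.3 in OP9, on the side of the core genes.

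The interferon-inducible cutting subunits, which are not members, differed between the lines far more than their constitutive counterparts. Psmb8, which takes the place of Psmb5, had 13.3 in OP9-DL, 112.2 in OP9-GFP and 1449.2 in OP9. Psmb9, the counterpart of Psmb6, had 27.4, 35.9 and 384.9, and Psmb10, the counterpart of Psmb7, had 49.7, 79.0 and 801.2. They were 12.9-fold, 10.7-fold and 10.1-fold lower in OP9-GFP than in OP9, while Psmb5, Psmb6 and Psmb7 differed by at most 1.48-fold between these arrays. Psmb8 was also 8.44-fold lower in OP9-DL than in OP9-GFP, where Psmb9 and Psmb10 differed by -0.39 and -0.67 on the log2 scale. The OP9-DL reading of Psmb8, 13.3, lay below the array median of 20. Psma8, a testis alpha subunit, was below the brightness limit with 4.2, 2.9 and 2.2 in OP9-DL, OP9-GFP and OP9.

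Genes that load peptides made by the immunoproteasome, and their regulators, lay on the same side. Of 7 compared genes, 6 were at least 2-fold lower in OP9-GFP than in OP9 and 0 were higher, with a median of -1.50, beside 6.75% of all probes lower by that fold. Tap2, a peptide transporter subunit, had 52.3 in OP9-DL, 47.0 in OP9-GFP and 337.4 in OP9, and Irf1, an interferon-induced transcription factor, 34.7, 54.2 and 231.0. Between OP9-DL and OP9-GFP 0 of the 7 were past 2-fold, where 5.03% of all probes were, so this count does not set them apart. The part of interferon signalling in the Psme1 difference was not tested.

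**Figure D3:**
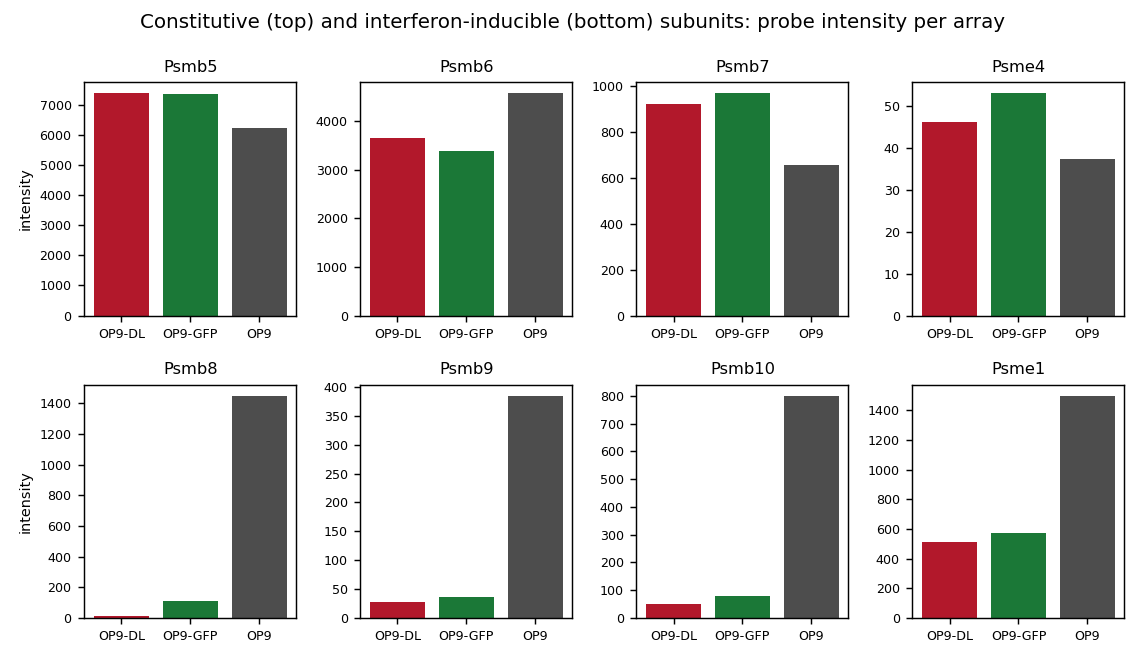
Probe intensity (y axis, linear from 0, a scale of its own for each gene) on the OP9-DL, OP9-GFP and OP9 arrays for the constitutive cutting subunits and Psme4 in the upper row and the interferon-inducible cutting subunits and Psme1 in the lower row; each bar is 1 array. In the lower row the OP9 bar is the tallest, 1497.8 for Psme1 and 1449.2 for Psmb8, while in the upper row OP9 is the tallest for Psmb6 only.

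Genes linked to the control of proteasome expression did not all lie on the side of the subunits. Nfe2l1, whose product raises proteasome genes when degradation fails, had 154.2 in OP9-DL, 171.9 in OP9-GFP and 220.1 in OP9. Nfe2l2, the regulator of antioxidant genes, had 136.2, 200.4 and 133.0. Keap1, whose product marks the Nfe2l2 protein for degradation, had 113.5 in OP9-DL, 69.0 in OP9-GFP and 214.1 in OP9, and was 3.10-fold lower in OP9-GFP than in OP9. Of 7 enzymes and transporters known as Nfe2l2 targets, 3 were at least 2-fold higher in OP9-GFP than in OP9 and 0 lower, with a median of 0.86, beside 4.86% of all probes higher. Srxn1, a sulfiredoxin, had 313.2 in OP9-DL, 737.4 in OP9-GFP and 183.3 in OP9. Gclm, of glutathione synthesis, had 543.8, 1109.7 and 414.6, and Txnrd1, a thioredoxin reductase, 1636.1, 2578.3 and 1000.8. Slc7a11, counted among the 7, was dim, with 5.7 in OP9-DL, 8.0 in OP9-GFP and 5.1 in OP9, close to the brightness limit of 6.13. Hmox1 and Nqo1, also on the list, had log2 differences of OP9-GFP minus OP9 of 0.17 and -0.05, and 1 of the 7 changed sign with the scaling. All 7 were lower in OP9-DL than in OP9-GFP, though 1 turned under some scaling. In that comparison 48.0% of all probes lay above 0. At 2-fold, 2 of the 7 were lower in OP9-DL, beside 2.72% of all probes. Srxn1 was 2.35-fold lower and Gclm 2.04-fold. The log2 difference of Gclm, -1.03, was -0.99 under lowess scaling and -0.98 when arrays were scaled on the 75th percentile, both under 2-fold. Both comparisons share the 1 OP9-GFP array, so they are not separate observations. In OP9-DL minus OP9 the 7 had a median of 0.16 (0.06 to 0.27 over the scalings). There 5 of the 7 lay above 0, beside 51.3% of all probes, and 0 were past 2-fold, beside 11.2%. The 6 members with the antioxidant letters in their promoter had differences of OP9-GFP minus OP9 of 0.24 for Psmb5, -0.43 for Psmb6, 0.66 for Psmc6, 0.20 for Psmd9, 0.61 for Psmd12 and 0.50 for Psme4. Whether these regulators had a part in the members' differences was not tested.

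The other steps of the pathway were mixed in OP9-GFP against OP9. Of the 7 further genes of the cap and its enzymes, 1 was past 2-fold, Txnl1, a thioredoxin-like protein bound to the cap, at 1267.3 in OP9-GFP and 597.6 in OP9, 2.12-fold higher, where 11.6% of all probes were past that threshold and 4.86% were higher, so that 1 of 7 lies near the share over all probes. Adrm1, a ubiquitin receptor of the base, at 370.8 against 194.5, and Uchl5, at 649.7 against 331.2, were 1.91-fold and 1.96-fold higher. Sem1, a small lid subunit, at 4929.4 against 6606.3, differed by -0.42. Among 5 shuttle receptor genes, which carry ubiquitinated proteins to the proteasome, Rad23b was 2.47-fold higher in OP9-GFP (103.3 and 41.9), and the other 4 stayed within 2-fold, against the same 4.86% of all probes higher. Both ubiquitin-activating enzyme genes, Uba1 and Uba6, and all 4 genes of the p97 segregase, among them Vcp (688.7 in OP9-GFP and 693.2 in OP9), were within 1.5-fold. Past that fold were 29.4% of all probes, so these small counts do not set the genes apart. The ubiquitin genes were not analysed here.

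OP9-DL minus OP9 shares its arrays with both other comparisons. Of the 34 members 24 lay above 0, beside 51.3% of all probes, with a median log2 difference of OP9-DL minus OP9 of 0.30 (0.27 to 0.41 over the scalings), beside 0.02 over all probes. The number above 0 was 23 to 27 over the scalings. Psma3 was 2.10-fold higher in OP9-DL and Psme1 2.94-fold lower, and the other 32 members were within 2-fold, where 11.2% of all probes were past it (4.31% higher and 6.91% lower). At 1.5-fold, 6 members were higher, Psma1, Psma3, Psma6, Psmc6, Psmd8 and Psmd14, and 1 was lower, beside 13.2% of all probes higher and 15.6% lower, 28.8% together. Psmd14 had 1650.9 in OP9-DL and 874.2 in OP9, 1.89-fold higher (past 2-fold when arrays were scaled on the 75th percentile), and Psma6 had 3755.3 and 2110.7, 1.78-fold higher. After Psme1, the lowest differences were those of Psmb4, at 2592.8 in OP9-DL and 3695.2 in OP9 (-0.51), and Psmd10, at 240.3 and 300.9 (-0.32).

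Ordered over the 3 arrays, OP9 gave the lowest reading for 23 of the 34 members, or 67.6%, where it did so for 39.5% of all probes compared. OP9-DL was highest for 15 members (31.1% of all probes), OP9-GFP for 15 (32.8%) and OP9 for 4 (36.1%), which were Psmb6, Psmc5, Psmd2 and Psme1. OP9-DL was lowest for 7 members (31.3% of all probes) and OP9-GFP for 4 (29.3%), Psmb6, Psmc5, Psmd2 and Psmd13. The members lie on 15 chromosomes by the gene table, with 6 on chromosome 11 and 5 on chromosome 2, so they share no single region.

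Most of the remaining members had their lowest reading in OP9. In the alpha ring, Psma1 read 1425.3 in OP9-DL, 1311.5 in OP9-GFP and 907.9 in OP9, and Psma4 read 2172.0, 1986.2 and 1589.9. In the beta ring, the structural genes Psmb1 and Psmb2 read 4110.8 and 1886.4 in OP9-DL, 3949.1 and 2026.6 in OP9-GFP, and 3864.9 and 1537.7 in OP9. OP9 was thus the lowest array for all 4, narrowly so for Psmb1, whose difference from OP9 turned under some scaling. Among the ATPases, Psmc1 read 1960.0 in OP9-DL, 1877.1 in OP9-GFP and 1352.1 in OP9, and Psmc4 read 606.8, 551.0 and 438.2. Psmc2 read 3562.0, 3513.1 and 3189.4 on the same arrays, again with OP9 lowest, whereas Psmc3, at 2023.6 in OP9-DL, 2457.2 in OP9-GFP and 2264.9 in OP9, was lowest in OP9-DL. In the base, Psmd1 read 1148.4 in OP9-DL, 999.6 in OP9-GFP and 894.1 in OP9, and Psmd4 read 1011.7, 855.1 and 775.1. The lid genes Psmd3 and Psmd6 were near-equal in OP9-DL (580.8 and 599.2) and OP9-GFP (604.5 and 609.6) and lower in OP9 (465.2 and 443.3). Psmd11, also of the lid, read 1532.1 in OP9-DL, 1688.5 in OP9-GFP and 1613.7 in OP9, all within 1.5-fold.

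Cytosolic ribosomal and respiratory chain genes, other abundant housekeeping sets, were put beside the proteasome as a description. In OP9-GFP minus OP9, the 12 core genes had a median of 0.36 and the 17 genes of base and lid 0.33. The 54 cytosolic ribosomal protein genes had a median of 0.00, whose sign depended on the scaling, and the 76 respiratory chain subunit genes had -0.25. In that comparison 11 of 12 core genes and 14 of 17 base and lid genes lay above 0, against 27 of 54 ribosomal and 18 of 76 respiratory chain genes. In OP9-DL minus OP9-GFP, the medians were 0.08 for the core, 0.02 for base and lid, 0.18 for ribosomal and 0.06 for respiratory chain genes. For OP9-DL minus OP9 they were 0.35, 0.32, 0.13 and -0.19 in the same order. There 10 of 12 core genes and 12 of 17 base and lid genes lay above 0. So did 39 of 54 ribosomal genes (30 to 48 over the scalings) and 19 of 76 respiratory chain genes (12 to 31). Whether the lists differ was not tested, since with 1 array per line no test can be had.

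**Figure D4:**
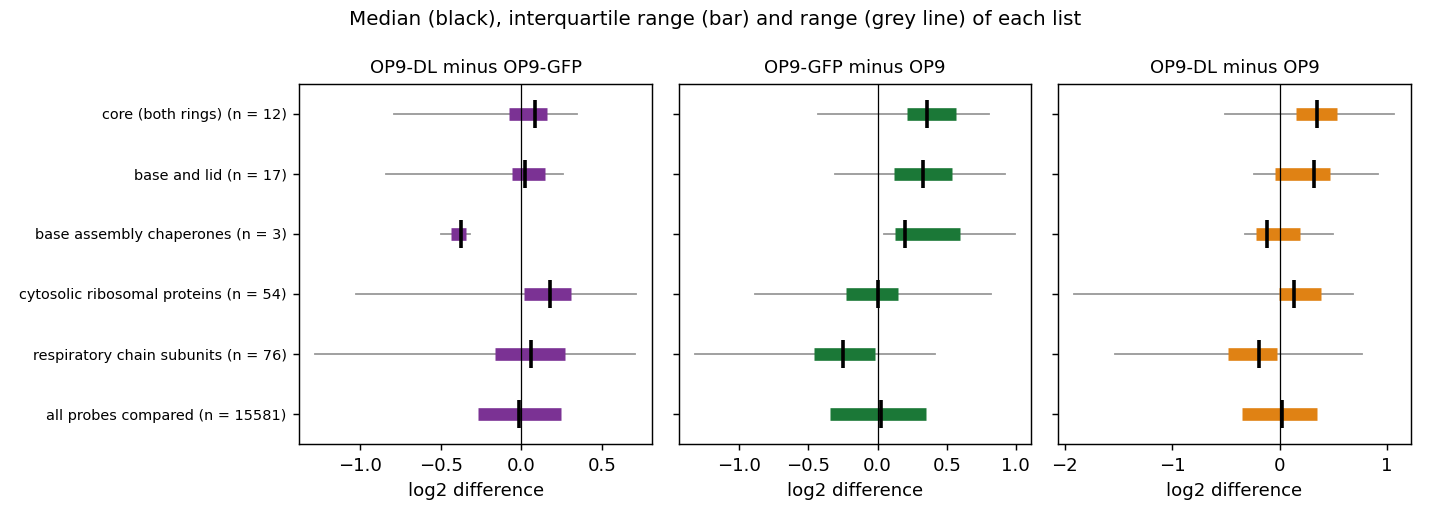
Log2 difference (x axis) in OP9-DL minus OP9-GFP, OP9-GFP minus OP9 and OP9-DL minus OP9 for 3 groups of proteasome genes, 2 other complexes and all probes compared (rows, n in brackets); the black mark is the median, the bar the interquartile range and the grey line the range over genes, not drawn for all probes. In OP9-GFP minus OP9 the bars of the core and of base and lid lie above 0, at medians of 0.36 and 0.33, while the respiratory chain bar lies below it at -0.25.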

How the data were processed

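Expression was measured on 3 one-colour arrays (Cy5), 1 per line. Per the labels' protocols, total RNA was amplified to amino allyl RNA and coupled to the dye by the array maker's protocol. The deposited values are linear probe intensity, with a median of 20 on each array. The scanner and the background correction were not given in the sources used here. Array number, 3, limits the precision.

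Log2 was taken with no added constant. Of 20775 probes with a value on all 3 arrays, 15581 had a mean log2 intensity at or above the 25th percentile and were compared, and a difference of 2-fold or more was counted. Probes were named from the platform table (16631 with 1 symbol, 6842 without), with 3947 symbols updated through RefSeq genes of GRCm38.p6; genes with several probes took the mean over them. The members and lists were chosen with earlier results of these data known. Every member may be named, and for each comparison the 3 members at either end are given with intensities. Among the other genes, those on the pathway lists and Dll1 may be named, and Cd48, Ptprc and Thy1 were named after their values were seen. Alternatives were quantile, lowess (span 0.3) and 75th percentile scaling, other brightness limits, a constant of 2.2, blanks at the lowest value, 1.5-fold and 3-fold thresholds, and other rules for several probes. The procedure was tested on simulated arrays with a fixed noise level and planted changes well past 2-fold. That test does not cover differences near the thresholds or the spread between these arrays. Python 3.11.15, numpy 2.4.6, pandas 2.3.3, statsmodels 0.14.6 and matplotlib 3.10.9 were used.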

Additional observations from a re-analysis of the deposited data

How the results depend on the processing

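The number of members past 2-fold depended on the threshold. At 1.5-fold it was 3 for OP9-DL against OP9-GFP, 8 for OP9-GFP against OP9 and 7 for OP9-DL against OP9, in place of 0, 1 and 2. At 3-fold it was 0 for OP9-GFP against OP9 and 0 for OP9-DL against OP9. Scaling on the 75th percentile gave 2 members for OP9-GFP against OP9, Psmd5 joining Psme1, and moved the median of OP9-DL against OP9 to 0.41, where it moved the median of all probes to 0.13 and Psmd14 past 2-fold. Under the other scalings, brightness limits, constant, blanks and probe rules the counts at 2-fold were within 1.5 times of those given. With the same alternatives the medians moved by 0.1 or less. This also held for the medians with Psme1 left out, an alternative chosen after seeing the data. Signs of members near 0 turned under some scaling: Psmb5, Psmc2, Psmd3, Psmd6 and Psmd14 in OP9-DL against OP9-GFP, Psmb1 in OP9-GFP against OP9, and Psmb1, Psmc5, Psmd2 and Psmd11 in OP9-DL against OP9. No paired analysis was possible because each line has 1 array, and for the same reason no replicate could be left out.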
